A study of Mus musculus with 6 samples.

Results

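The small heat shock protein genes Hspb1, Hspb2, Hspb3, Hspb6, Hspb7, Hspb8 and Cryab were followed in gastrocnemius muscle of old mice given inotodiol or vehicle. These 7 genes were taken by symbol from the 23282 rows of each count table, and all 7 were present. Hspb7 was chosen by its higher level with inotodiol than with vehicle in these same libraries, so its difference between the groups is given as a description with no test. The other 6 were taken as the remaining small heat shock protein genes typical of muscle. Bulk RNA was sequenced from 3 mice given inotodiol and 3 given vehicle. The inotodiol mice received 0.35 mg/kg by mouth every day for 10 weeks, and the vehicle was 40% polyethylene glycol, 5% Tween 80 and 0.9% saline. All 6 animals were wild-type C57/BL6J males of 20 months, with no second genotype or age beside them. Inotodiol is a lanostane triterpenoid of the chaga mushroom. The series title links the compound to muscle wasting with age, mitochondria and signalling by liver X receptor beta, and the design looks for transcripts that the treatment changes.

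Small heat shock proteins are chaperones that share the alpha-crystallin domain. They hold unfolding proteins in a soluble state without using ATP and pass them to the ATP-driven HSP70 system or to autophagy. Muscle makes most of the family, whose clients there include actin filaments, desmin, filamin C and titin. Several members, among them HSPB1 and alpha-B-crystallin, are induced by heat through heat shock factors, which bind repeats of GAA and TTC called heat shock elements.

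Promoters of 5 of the 7 genes were matched in RefSeq on build GRCm38.p6, each from 250 bases before to 50 bases after a transcript start. The genes were Hspb1, Hspb3, Hspb6 (with 2 starts), Hspb7 and Hspb8; Hspb2 and Cryab were not matched. The 4 promoters below are shown because a heat shock element was found in those of Hspb1, Hspb6 and Hspb8 and not in that of Hspb7, the member picked for its difference. Capitals mark heat shock elements, searched on both strands as GAANNTTC or TTCNNGAA, and a TATA box, searched as TATAAA.
Hspb7, chr4:141420529-141420828, plus strand: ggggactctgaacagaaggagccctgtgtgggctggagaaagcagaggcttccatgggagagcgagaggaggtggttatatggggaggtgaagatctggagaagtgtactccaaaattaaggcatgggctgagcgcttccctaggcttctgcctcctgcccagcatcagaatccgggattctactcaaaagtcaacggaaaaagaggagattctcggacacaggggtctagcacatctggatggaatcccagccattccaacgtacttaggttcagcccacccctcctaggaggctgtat
Hspb1, chr5:135887669-135887968, plus strand: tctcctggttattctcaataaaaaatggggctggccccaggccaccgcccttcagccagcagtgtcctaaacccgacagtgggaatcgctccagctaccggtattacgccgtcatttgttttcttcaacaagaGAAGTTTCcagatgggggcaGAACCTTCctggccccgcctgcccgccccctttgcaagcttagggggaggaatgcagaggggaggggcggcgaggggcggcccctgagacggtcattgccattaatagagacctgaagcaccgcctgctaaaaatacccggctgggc
Hspb6, second start, chr7:30553051-30553350, plus strand: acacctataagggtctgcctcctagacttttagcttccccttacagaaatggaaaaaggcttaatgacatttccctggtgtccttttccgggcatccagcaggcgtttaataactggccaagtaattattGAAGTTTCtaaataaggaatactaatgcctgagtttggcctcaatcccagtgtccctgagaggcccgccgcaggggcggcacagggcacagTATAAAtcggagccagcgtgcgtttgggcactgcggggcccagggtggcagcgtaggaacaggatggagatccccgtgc
Hspb8, chr5:116422815-116423114, minus strand: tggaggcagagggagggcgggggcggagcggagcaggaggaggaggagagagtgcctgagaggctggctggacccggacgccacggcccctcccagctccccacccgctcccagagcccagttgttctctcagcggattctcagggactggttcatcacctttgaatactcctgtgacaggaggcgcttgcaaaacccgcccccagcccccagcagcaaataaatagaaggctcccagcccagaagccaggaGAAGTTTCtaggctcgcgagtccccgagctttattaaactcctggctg
Hspb1 held 2 matches, whose first bases lay at -117 and -97 from the start. Hspb6 held 1 at -120 of the second start and none at the first start, and Hspb8 held 1 at 3, just inside the transcript. Hspb3 (not shown) held 1 at -224, along with a MEF2 site at -12 that contains a TATA box at -11. Hspb6 had a TATA box at -29 of its second start. Of all 32851 promoters of the same length, 15.1% held such a heat shock element, 13.6% a TATA box and 3.19% a MEF2 site. The Hspb7 window held none of the motifs searched, which also included the CArG box of serum response factor, held by 1.63% of promoters. A missing match says only that these letters are not in this window.

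Library totals ran from 8961893 to 9953764 counts. All 7 members were among the 11700 genes kept for testing. Values below are CPM, read counts relative to library size, after TMM scaling unless called unscaled. The precursor ribosomal RNA Rn45s took 4.33% to 10.2% of the counts in inotodiol libraries and 3.97% to 6.82% in vehicle libraries, which lowers unscaled values of other genes where it is high. Inotodiol libraries 1 and 2 stood apart in 12 hepatocyte markers, whose summed level was 590 CPM in inotodiol 1, 236 CPM in inotodiol 2 and 84.5 CPM in inotodiol 3, against 13.0 to 74.1 CPM in vehicle libraries. The muscle label fitted its markers, as 7 muscle fibre genes summed to 146907 to 175964 CPM in inotodiol and 148827 to 164294 CPM in vehicle libraries. In bulk muscle, fewer cells of a type and less RNA per cell cannot be told apart.

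Hspb7 was higher in every inotodiol mouse than in any vehicle mouse, the difference it was chosen by. Hspb2 was too, by a narrow margin, and the other 5 members overlapped between the groups. HSPB7, once called the cardiovascular heat shock protein, is made in heart and skeletal muscle and binds filamin C. The gene (chromosome 4, 141420779 to 141425311, plus strand, GRCm38) has 1 coding transcript of 2769 bases in 3 exons. Hspb7 had 338, 241 and 446 CPM in inotodiol libraries 1 to 3, against 209, 225 and 190.2 CPM in vehicle libraries 1 to 3. These came from 3117, 2170 and 4348 counts with inotodiol and from 1985, 2088 and 1937 counts with vehicle. The vehicle mice lay close together, while the inotodiol mice spread widely and inotodiol 2 stood only just above vehicle 2. The means were 342 ± 102 CPM with inotodiol and 208 ± 17.6 CPM with vehicle (SD, n = 3). This was a fold of 1.64 and a log2 fold change of 0.71, given without an SE since the gene was chosen by this difference. Without inotodiol replicate 3 the log2 fold change of Hspb7 was 0.47, against 0.91 without inotodiol replicate 2.

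The separation of the Hspb7 groups depended on how library size was counted. In unscaled CPM, inotodiol 2 had 224 and vehicle 2 had 226, so the groups overlapped. With Rn45s taken out of the library totals, the same 2 libraries had 247 and 242 CPM, and no overlap remained. Beside this gene, 6 Schwann cell markers were followed, none of them at 0 in all libraries. Their sum was 98.5, 105 and 194 CPM in inotodiol libraries 1 to 3, against 87.9, 72.6 and 93.9 CPM in vehicle libraries. Like Hspb7 this sum was highest in inotodiol 3 and did not overlap between the groups. Among the 11 cell marker lists, the adipocyte sum was also highest in inotodiol 3, at 163 CPM, but its groups overlapped. Taken singly, the groups did not overlap for 2 of the 6 Schwann markers, against 10.4% of all genes tested. The part of these markers in the result was not tested. The sum of the 12 hepatocyte markers did not overlap between the groups either, at 84.5 to 590 CPM with inotodiol and 13.0 to 74.1 CPM with vehicle. None of the 12 was at 0 in all libraries. All 11 hepatocyte markers kept for testing had a log2 fold change above 0, and their part was likewise not tested.

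**Figure D1:**
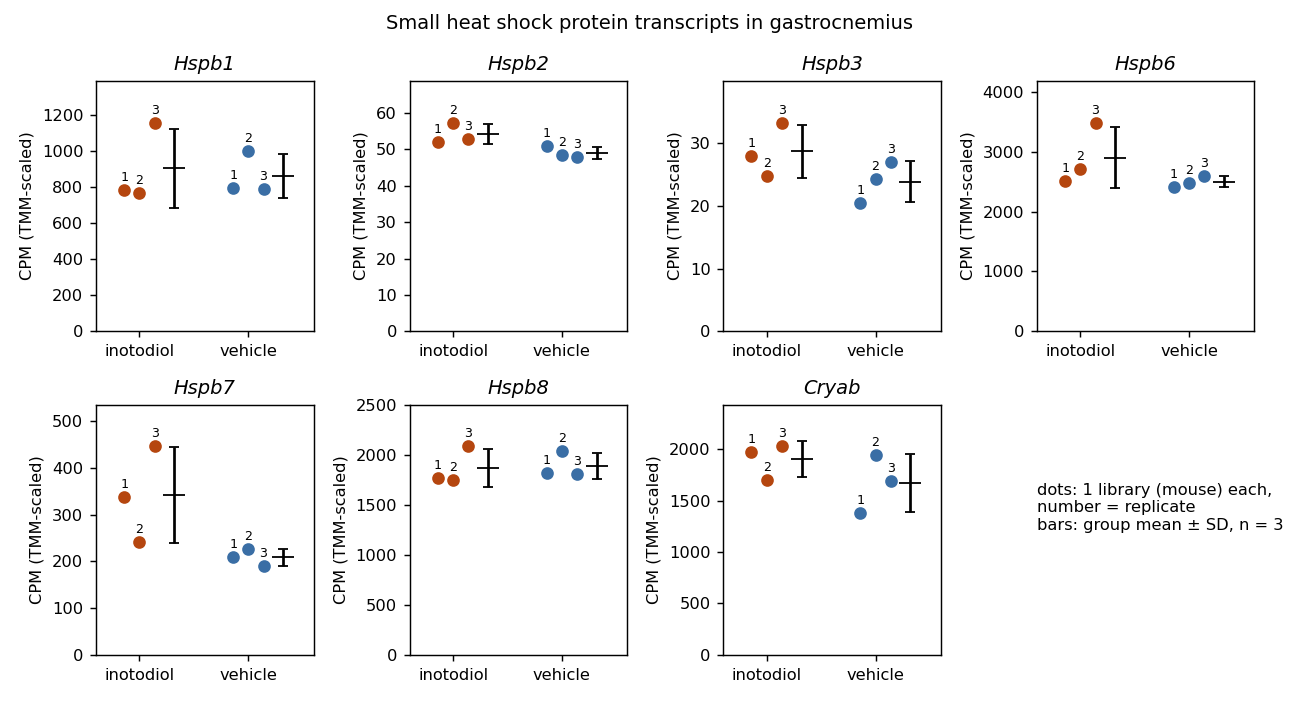
TMM-scaled CPM (vertical axes, from 0) of each gene in the 3 inotodiol and 3 vehicle libraries, with each replicate numbered and bars for the group mean ± SD. Hspb7 lay at 241 to 446 CPM with inotodiol, above all vehicle libraries at 190.2 to 225 CPM, and replicate 3 was the highest inotodiol library for every gene except Hspb2.

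The 2 members known for binding intermediate filaments and actin, Cryab and Hspb1, overlapped between the groups. Cryab encodes alpha-B-crystallin, which guards desmin and whose missense changes cause a desmin-storage myopathy in people. Cryab had 1977, 1704 and 2027 CPM in inotodiol libraries 1 to 3, against 1382, 1947 and 1687 CPM in vehicle libraries 1 to 3. Vehicle 1 was the low library and the others shared a common range, giving a log2 fold change of 0.19 ± 0.14 (SE; 95% interval -0.10 to 0.48). HSPB1, also called HSP27 in people, stabilises actin filaments and is phosphorylated by kinases downstream of p38. Hspb1 had 784, 769 and 1156 CPM with inotodiol, against 792, 1001 and 789.9 CPM with vehicle. A single mouse of each group was high and the others were alike, so the log2 fold change was 0.069 ± 0.16, and it was -0.15 without inotodiol replicate 3.

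Hspb6 and Hspb8 belong to the signalling and the quality control arms of the family. HSPB6 is a target of cyclic nucleotide-dependent kinases and was studied first in relaxing smooth muscle. Hspb6 had 2511, 2710 and 3485 CPM with inotodiol, against 2410, 2484 and 2594 CPM with vehicle. Inotodiol 3 alone stood well above the vehicle mice, and inotodiol 1 lay inside their range. Its log2 fold change was 0.22 ± 0.13 (95% interval -0.059 to 0.49), and 0.064 without inotodiol replicate 3. HSPB8 joins the co-chaperone BAG3 in chaperone-assisted selective autophagy, which clears damaged filamin from the Z-disc. Hspb8 had 1767, 1754 and 2086 CPM with inotodiol, against 1821, 2036 and 1809 CPM with vehicle. The group ranges covered each other, with a log2 fold change of -0.015 ± 0.12 and a 95% interval of -0.26 to 0.23.

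Hspb2 and Hspb3, whose proteins assemble with each other during muscle differentiation, were the least counted members. HSPB2 was named for binding the myotonic dystrophy protein kinase. Hspb2 had 52.2, 57.4 and 53.0 CPM with inotodiol, against 51.0, 48.4 and 48.0 CPM with vehicle. All inotodiol values stood above all vehicle values, by a narrow margin, and the log2 fold change was 0.14 ± 0.15 (95% interval -0.18 to 0.46). With Rn45s out of the totals the groups of Hspb2 overlapped, since inotodiol 1 then had 53.8 CPM and vehicle 1 had 56.2 CPM. Hspb3 had 28.0, 24.9 and 33.3 CPM with inotodiol, against 20.4, 24.3 and 27.0 CPM with vehicle. Its groups overlapped through inotodiol 2 and vehicle 3, with a log2 fold change of 0.26 ± 0.20 (95% interval -0.16 to 0.69).

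Among the 6 members not chosen by their difference, none was called. In edgeR's quasi-likelihood test 0 of these 6 passed an adjusted p of 0.05, against 0% of the 11700 genes tested (0 genes), and their adjusted p ranged from 0.962 to 0.998. Before adjustment 570 genes, 4.87% of those tested, had p under 0.05, and none of the 6 was among them. DESeq2 called 1 gene, which was no member, and limma-voom called 0. Groups did not overlap for 1 of the 6, Hspb2, against 10.4% of all genes tested. It lay higher with inotodiol, which held without overlap for 5.15% of all genes. Log2 fold changes were above 0 for 5 of the 6, against 49.9% of all genes, and members from the same mice are not independent. The median over the 6 was 0.16, beside -0.00073 over all genes tested. With Hspb7 added, whose sign the choice fixed, the median was 0.19. An interval that spans 0 does not show that a gene did not differ. For Hspb8 it left room for 0.833 to 1.18 times the vehicle level, and for Hspb3 for 0.895 to 1.61 times.

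**Figure D2:**
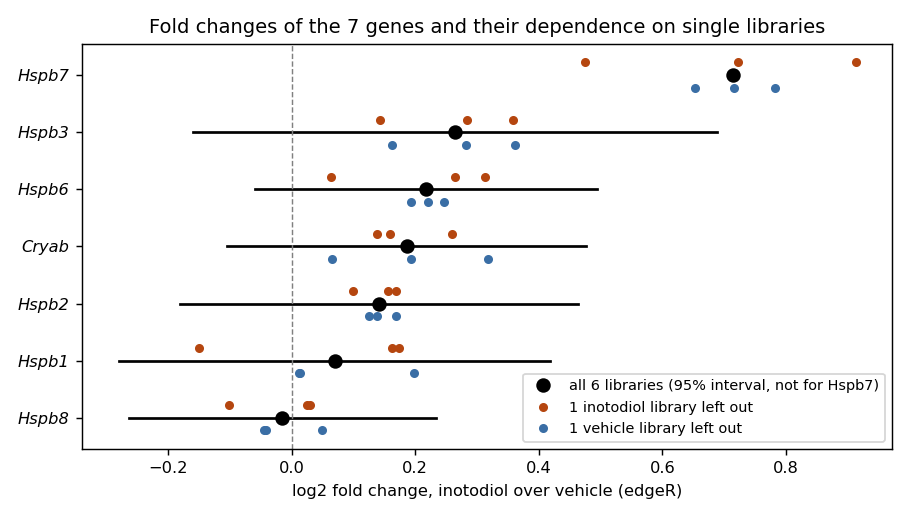
Log2 fold change of inotodiol over vehicle (horizontal axis) for each gene, as a black dot from all 6 libraries, with its 95% interval except for Hspb7, and as small dots with 1 library left out. Hspb7 ran from 0.47 to 0.91 with single libraries left out, while Hspb1 and Hspb8 fell on both sides of 0.

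Much of the variation among the members followed single libraries, each from its own mouse. Inotodiol 3 was the highest library for 6 of the 7 genes, and all 7 lay above their own means there. The 7 include Hspb7, which was chosen for being high with inotodiol. What share of all genes tested was highest in inotodiol 3 was not examined. On the log2 scale the 6 members other than Hspb7 averaged 0.25 above their means in inotodiol 3, against -0.0083 in inotodiol 1 and -0.038 in inotodiol 2. In vehicle libraries 1 to 3 these averages were -0.18, 0.026 and -0.060. Vehicle 1 was the lowest library for Hspb3, Hspb6 and Cryab, and inotodiol 2 was the lowest for Hspb1 and Hspb8. Markers of 9 slow fibre genes, which include the slow myosin and troponin genes, summed to 2828, 2587 and 3113 CPM with inotodiol and to 2972, 3194 and 2260 CPM with vehicle, with inotodiol 3 the highest inotodiol library and vehicle 2 the highest vehicle library. Those of 11 fast fibre genes summed to 133552 to 143229 CPM with inotodiol and 129344 to 133600 CPM with vehicle. The fast fibre sum was lowest among inotodiol mice in inotodiol 3, and no marker of either fibre list was at 0 in all libraries. The part of fibre makeup in these differences was not tested.

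**Figure D3:**
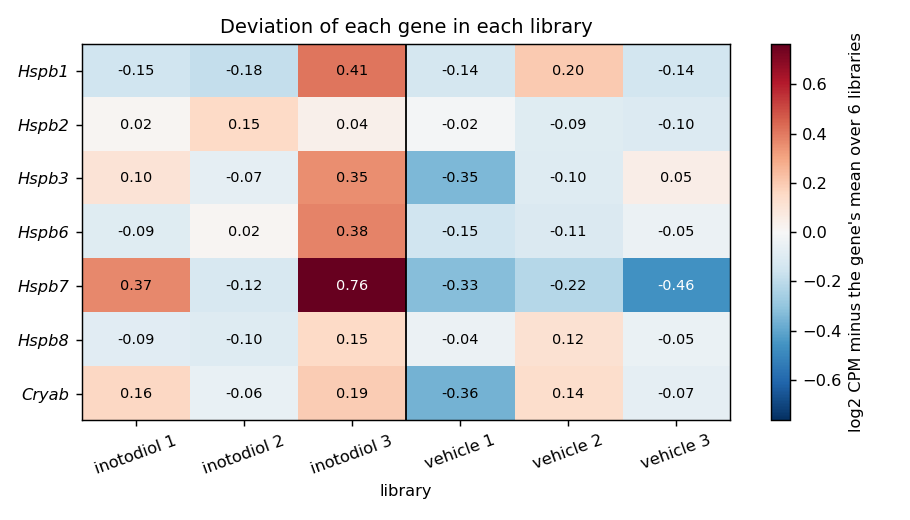
Log2 CPM of each gene (rows) in each library (columns) minus that gene's mean over the 6 libraries, with inotodiol left of the line and red for above the mean. The column of inotodiol 3 is above the mean for all 7 genes, most of all for Hspb7 at 0.76, and vehicle 1 is below it for all 7.

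The members also differed in how steady they were between mice of a group. The within-group SD of log2 CPM was 0.061 for Hspb2, at the 0.791 percentile of all genes tested. That is about the 0.065 that counting error alone gives at its depth. Hspb8 had 0.12 (7.21 percentile) and Hspb6 0.18 (19.6 percentile), with counting errors near 0.011 and 0.0091. Most of their spread thus lay between libraries, where mouse and preparation cannot be told apart. Cryab at 0.20 and Hspb3 at 0.21 stood at the 24.7 and 26.2 percentiles. Hspb1 had 0.27 (40.8 percentile) and Hspb7 had 0.33 (51.0 percentile), beside a median of 0.32 over all genes. The spread of Hspb7 was unequal, with a coefficient of variation of 30.0% among inotodiol mice and 8.46% among vehicle mice.

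Within the family, Hspb7 held a larger share of the counts in every inotodiol mouse than in any vehicle mouse, and Hspb8 a smaller one. Hspb7 was chosen for its higher level in these same libraries, so its larger share is no separate result. These shares do not depend on library scaling. Hspb7 made up 4.54%, 3.32% and 4.80% of the counts of the 7 genes in inotodiol libraries 1 to 3, against 3.13%, 2.90% and 2.66% in vehicle libraries 1 to 3. For the closest libraries, exact binomial 95% intervals were 3.18% to 3.46% for inotodiol 2 and 2.99% to 3.27% for vehicle 1. These intervals cover counting error only, and they overlapped. Hspb8 made up 23.7%, 24.2% and 22.5% of the counts with inotodiol and 27.2%, 26.2% and 25.3% with vehicle. The groups did not overlap for either share, and since shares of a whole move against each other these are descriptions with no test. Shares of Hspb1, Hspb2, Hspb3, Hspb6 and Cryab overlapped between the groups. The 7 genes together took 0.690%, 0.674% and 0.950% of all counts in inotodiol libraries, against 0.708%, 0.778% and 0.758% in vehicle libraries. Inotodiol 3 was the highest and the other inotodiol libraries the lowest of the 6, with exact intervals no wider than 0.944% to 0.956%. Without Rn45s in the totals the inotodiol shares were 0.769%, 0.746% and 0.993%, and the vehicle shares were 0.738%, 0.835% and 0.793%.

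**Figure D4:**
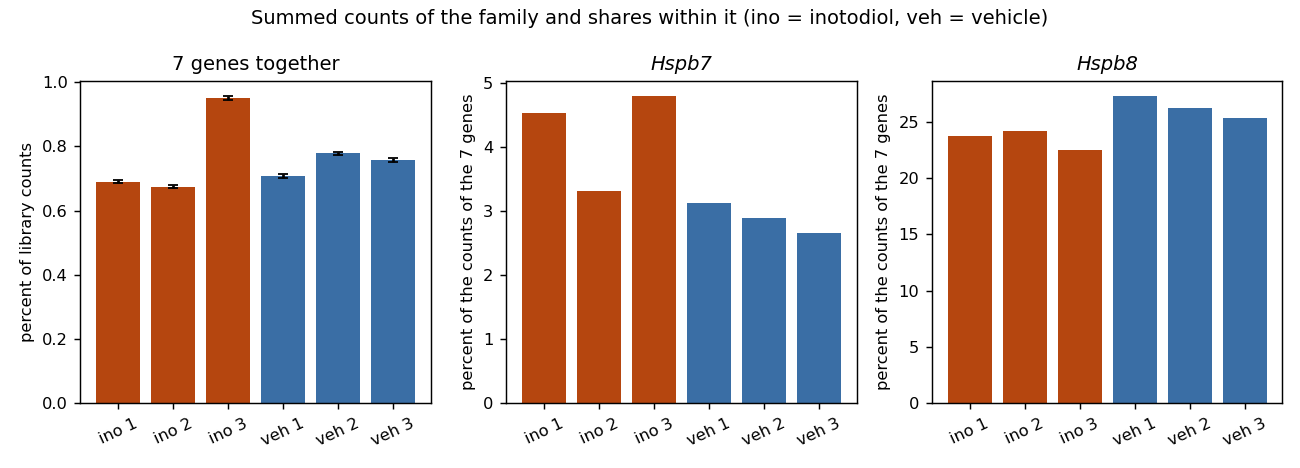
Counts of the 7 genes as a percent of all counts of a library (left, with exact 95% intervals), and counts of Hspb7 (middle) and Hspb8 (right) as a percent of the counts of the 7 genes, for inotodiol (ino) and vehicle (veh) libraries. Hspb7 shares were 3.32% to 4.80% with inotodiol and 2.66% to 3.13% with vehicle, and Hspb8 shares were 22.5% to 24.2% with inotodiol and 25.3% to 27.2% with vehicle. The Hspb7 shares go with the difference that Hspb7 was chosen by.

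Levels of different members were set against each other per kilobase of the longest coding transcript. On that scale Hspb6 was highest, at 2129 ± 378 CPM per kilobase with inotodiol and 1831 ± 67.9 with vehicle (SD, n = 3). Cryab followed at 1703 ± 155 with inotodiol and 1497 ± 253 with vehicle, its libraries all below those of Hspb6 within a group. Hspb8 had 1029 ± 104 CPM per kilobase with inotodiol and 1040 ± 70.3 with vehicle, and Hspb1 had 971 ± 236 with inotodiol and 926 ± 130 with vehicle. The ranges of Hspb8 and Hspb1 overlapped in both groups, so their order is not settled. Hspb7 came next at 123 ± 37.0 CPM per kilobase with inotodiol and 75.2 ± 6.36 with vehicle. Hspb2 had 70.1 ± 3.61 CPM per kilobase with inotodiol and 63.5 ± 2.09 with vehicle. Hspb3 was lowest, at 36.8 ± 5.47 with inotodiol and 30.6 ± 4.23 with vehicle. Whether reads came from transcript ends alone is not given. In plain CPM Cryab and Hspb8 overlapped instead, and Hspb1 lay below both, so the order of these 3 depends on the scale. Distances between members depend on it too. Over all 6 libraries Hspb7 and Hspb2 had means of 275 and 51.7 CPM, against 99.3 and 66.8 CPM per kilobase.

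Cryab and Hspb2 are neighbours whose counts could not be fully parted. Both lie on chromosome 9, Hspb2 on the minus strand at 50751078 to 50752354 and Cryab on the plus strand at 50751325 to 50756636 in GENCODE M21 on GRCm38. Their spans share 1030 bases and their annotated exons 252 bases, through the longer upstream transcripts of Cryab, and the strand setting of the counting is not given. Hspb2 had 2.64, 3.37 and 2.61 counts per 100 counts of Cryab in inotodiol libraries 1 to 3, against 3.69, 2.48 and 2.85 in vehicle libraries 1 to 3. The ratio overlapped between the groups. Hspb6 on chromosome 7 (30552178 to 30555443, plus strand) shares 122 exonic bases with Proser3 and 3 with Lin37 on the other strand, as well as an annotated miRNA gene within its own exons. Hspb1 (chromosome 5, 135887919 to 135889563), Hspb8 (chromosome 5, 116408491 to 116422864), Hspb3 (chromosome 13, 113662896 to 113663676) and Hspb7 overlap no other annotated gene.

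The remaining genes of the family were nearly silent. Cryaa, the lens alpha-A-crystallin, Hspb9 and Odf1, both typical of testis, had 0 counts in all 6 libraries. At 3 counts per library, that allows a level of up to 0.301 to 0.335 unscaled CPM, for counting error only. Hspb11, a ciliary transport protein that carries the family name without its usual domain, had 1.19, 4.11 and 6.66 CPM with inotodiol and 6.42, 4.32 and 2.26 CPM with vehicle. Its groups overlapped, with a log2 fold change of -0.12 ± 0.58.

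Among the partners that take clients from the small heat shock proteins, no gene passed the test. In edgeR 0% of the 11700 genes tested passed it. Of 12 genes of chaperone-assisted selective autophagy 7 lay above 0 and 5 below, with a median of 0.018, and 0 were called by edgeR, DESeq2 or limma-voom. Bag3, the scaffold that HSPB8 binds, had 201 ± 26.8 CPM in inotodiol and 201 ± 32.3 CPM in vehicle muscle (SD, n = 3), and its log2 fold change was -0.0025 ± 0.15. Flnc, the filamin C that this route clears and HSPB7 binds, stood at -0.032 ± 0.15, with 271 ± 38.8 CPM in inotodiol and 277 ± 47.9 CPM in vehicle muscle. Stub1, the ubiquitin ligase CHIP, had 105, 91.5 and 120.1 CPM with inotodiol, against 87.9, 85.6 and 88.4 CPM with vehicle. Its groups did not overlap, and its log2 fold change of 0.27 ± 0.15 had an adjusted p of 0.962 in edgeR. Synpo2, which tethers the complex to autophagic membranes, stood at 0.36 ± 0.23, Tsc1, an inhibitor of mTOR, at -0.21 ± 0.16 and Ubqln2, a proteasome shuttle, at -0.29 ± 0.24. Bag1, another HSP70 co-chaperone, was the second of the 12 whose groups did not overlap, at 0.14 ± 0.14; over all genes tested 10.4% did not overlap.

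Heat shock factors and inducible chaperones likewise held no called gene, against 0% of the 11700 genes tested in edgeR. Of 17 genes 12 lay above 0 and 5 below, with a median of 0.044 and 0 called by edgeR, DESeq2 or limma-voom. In edgeR 0 of them had an unadjusted p under 0.05, against 4.87% of all genes tested. Hsf1, the factor that drives the heat shock response, stood at -0.058 ± 0.23 and its inducible target Hspa1a at -0.15 ± 0.22. Hspa1a has a near-identical neighbour, Hspa1b, with which reads could be shared. Hsp90aa1, the inducible HSP90, had a log2 fold change of 0.22 ± 0.16 and its activator Ahsa1 of 0.21 ± 0.16. Hsp90ab1, the constant form, stood at 0.091 ± 0.12 and the mitochondrial chaperonin gene Hspe1 at 0.11 ± 0.15. All 4 had groups that overlapped, while 10.4% of all genes tested had groups that did not.

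Clients and modifying enzymes completed the lists, and they too held no called gene, against 0% of the 11700 genes tested in edgeR. Of 21 sarcomere and filament clients 20 were tested, 13 above 0 and 7 below, with a median of 0.038 and 0 called by edgeR, DESeq2 or limma-voom. Des, the desmin that alpha-B-crystallin guards, stood at 0.052 ± 0.11. The actin-binding Xin genes Xirp2 and Xirp1 had log2 fold changes of 0.24 ± 0.12 and 0.36 ± 0.25. Xirp1 had 135, 139.9 and 287 CPM with inotodiol, against 124, 180.1 and 133 CPM with vehicle, and like most members was highest in inotodiol 3. Dmpk, the kinase that HSPB2 binds, stood at 0.17 ± 0.14, and Vim, the mesenchymal filament gene, at -0.39 ± 0.24 beside a summed fibroblast marker level that was highest in vehicle 3 (1891 CPM, against 945 to 1122 CPM with inotodiol). Of 10 kinases and phosphatases that act on small heat shock proteins 3 lay above 0 and 7 below, with a median of -0.10 and 0 called by edgeR, DESeq2 or limma-voom. Prkg1, the cGMP-dependent kinase, stood at -0.51 ± 0.25, Ppp1cb, a catalytic subunit of protein phosphatase 1, at -0.21 ± 0.17, Mapkapk5 at -0.17 ± 0.15 and Ppp1ca, another catalytic subunit, at -0.14 ± 0.13. Ppp1ca was the 1 gene of the 10 whose groups did not overlap, being lower with inotodiol, beside 10.4% of all genes. In none of these 4 lists did a gene reach an unadjusted p of 0.05 in edgeR, against 4.87% of all genes tested.

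**Figure D5:**
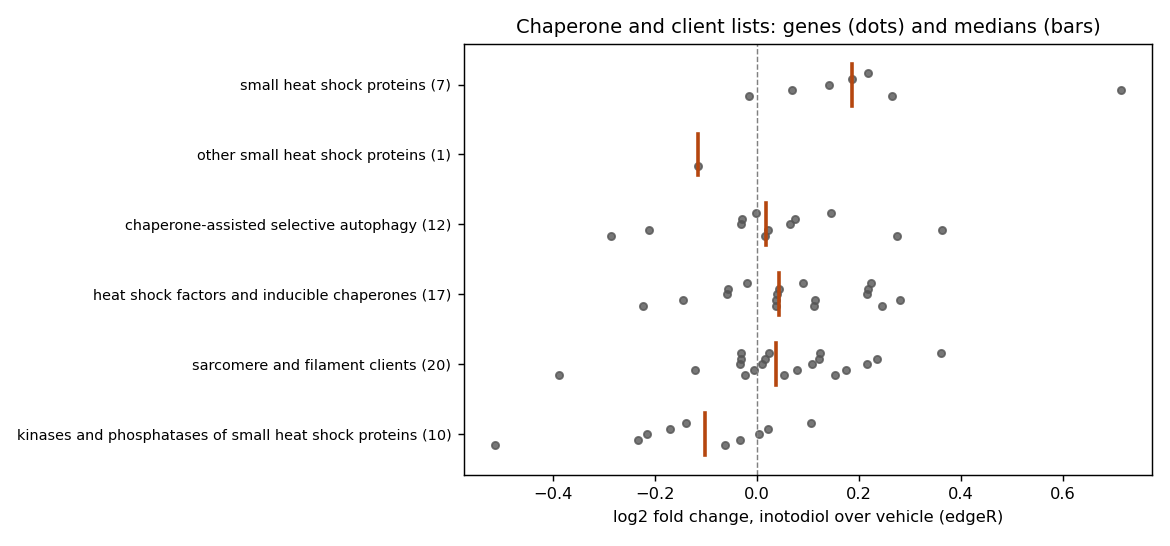
Log2 fold changes of inotodiol over vehicle (horizontal axis) for the genes tested in each chaperone and client list, with a bar at each list's median and the number of genes in parentheses. Hspb7 at 0.71 is the point farthest right, and the medians of the other lists with at least 10 genes lie between -0.10 and 0.044.

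Other genes were ranked by how closely they followed Hspb7, by the root mean square difference of log2 CPM from each gene's own mean over the 6 libraries. Among 6617 genes with at least 10 CPM, the nearest included Gm867 at 0.14, Lmcd1 at 0.15, and Mtg2 and Zfp503 at 0.16, beside a median of 0.47. Lmcd1, a LIM protein of striated muscle, had 160.2, 134 and 212 CPM with inotodiol and 126, 139 and 109.6 CPM with vehicle, so its groups overlapped. Gm867 had 795, 599.8 and 1012 CPM with inotodiol and 614, 579 and 559.6 CPM with vehicle, with a like overlap. No other member came as near to Hspb7, the closest being Hspb3 at 0.29 and Hspb6 at 0.31. The nearest genes to the mean of the 7 members were Inppl1, Txndc15, Stk40, Dexi and Bola3, at 0.040 to 0.049 beside a median of 0.26. Hspb7 itself lay at 0.28 from this mean. A flat profile, the same in all libraries, lay at 0.17 from this mean and at 0.43 from Hspb7. With only 6 libraries and so many genes, near neighbours can turn up without any link between the genes. How near they lie for other profiles was not examined, and the neighbours are given as a description.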

How the data were processed

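RNA of gastrocnemius muscle from 6 mice was sequenced after library preparation with a Lexogen Quant-Seq kit, per the labels' protocols. The authors deposited raw read counts for each gene symbol, in whole numbers. Bowtie2, bedtools and build mm10 are named in the submitters' processing notes, and versions, annotation, strand setting and handling of multiply matching reads are not given there. Genes were filtered with filterByExpr (minimum count 10, minimum total 15), scaled by TMM and fitted in edgeR 4.0.16 under R 4.3.3. Its quasi-likelihood test compared the groups, with no other term, two-sided and with Benjamini-Hochberg adjustment over 11700 genes at 0.05. Log2 CPM used a prior count of 2, and the fit was tested on simulated data. P-values, SEs and intervals rest on the spread among 3 animals per group, estimated with information shared across the genes tested. They are thus not set by a gene's own spread alone. For Hspb2 the SE of the log2 fold change, 0.15, was larger than its own within-group SD of log2 CPM, 0.061.

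The members, lists and tests were chosen with earlier results of these data known. All members, the 4 genes of each list with the smallest p and the 5 nearest profiles were to be named, of which 1 is not reported here; Bag1, Bag3, Flnc, Hsf1, Hspa1a and Des were added after their values were seen. Alternatives covered scaling (RLE, upper quartile, library totals), filtering (none, or 1 CPM in all 6 libraries), DESeq2 1.42.0, limma-voom (limma 3.58.1), robust edgeR, a replicate block and each library left out. A run without Rn45s was added after seeing the data. Coordinates are from GENCODE M21 and promoters from RefSeq, both on GRCm38, which is mm10.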

Additional observations from a re-analysis of the deposited data

How the results depend on the processing

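Hspb2, with 448 to 517 counts per library, had a spread no wider than counting error. For the other members, Hspb3 with 194 to 325 counts included, the spread was wider than counting error. Genes called higher and lower with inotodiol numbered 80 and 15 with no filter on low counts, where the 1 member past the threshold was Hspb7, which was chosen by this difference and is not tested by it, and DESeq2 called 1 gene higher. With single libraries left out the counts were 0 to 24 higher and 0 to 1 lower, all of them without inotodiol replicate 3, and 0 members were called. The log2 fold change of Hspb7 ranged from 0.47 to 0.91 over the 16 alternatives. Hspb2, Hspb3, Hspb6 and Cryab kept a log2 fold change above 0 under all 16, and the median of the 7 genes ranged from 0.076 to 0.26. Hspb1 turned to -0.031 with library totals alone and to -0.15 without inotodiol replicate 3, and ranged from -0.15 to 0.20 with single libraries left out. Hspb8 turned to 0.025 without inotodiol replicate 1, 0.029 without inotodiol replicate 2 and 0.049 without vehicle replicate 2, within -0.10 to 0.049 with single libraries left out and -0.13 to 0.049 over all 16. The cause was not tested. Library totals alone moved the median of all genes to -0.12, from -0.00073; relative to that median Hspb1 was at 0.088, Hspb7 at 0.73 and Hspb8 at -0.0058. With the replicate number as a block 0 genes were called and Hspb7 stood at 0.67. Deviations of same-numbered libraries correlated at -0.081, 0.11 and 0.022, and those of differently numbered libraries at -0.13 to 0.097. Correlations this weak cannot settle whether the numbers paired the animals. Leaving out Rn45s changed no call.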

Other observations

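Hspb1 had 44.4, 43.9 and 55.4 counts per 100 counts of Hspb8 in inotodiol libraries 1 to 3, against 43.5, 49.2 and 43.7 in vehicle libraries 1 to 3, so 1 mouse of each group stood above the other 4.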
